A study of Drosophila melanogaster with 2 samples.

Results

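Dosage compensation in Drosophila melanogaster raises transcription of the single male X chromosome, and the genes described here encode its machinery. The 8 genes were taken by name from the fly annotation, by a rule that uses no peak, out of 17683 annotated genes on the chromosome arms. The choice was made with earlier results of these data known. Of the 8, mof, lncRNA:roX1 and lncRNA:roX2 are X-linked and msl-1, msl-2, msl-3, mle and Clamp are autosomal. Sites of binding were found by ChIP-seq, the sequencing of immunoprecipitated chromatin, with an anti-GFP antibody in whole embryos aged 0 to 16 h, from a transgenic line that stably expresses the insulator protein CTCF with GFP fused to its C terminus. The series has 1 group with 2 biological replicates, numbered 2 and 3, and no untagged group was used here, so no contrast between conditions was possible. Whether the line also keeps untagged CTCF, and which promoter drives the fusion, is not given in the labels. Male and female embryos were pooled, so values cannot be split by sex.

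The male-specific lethal (MSL) complex joins the scaffold protein msl-1, the RING finger protein msl-2, the chromodomain protein msl-3, the RNA helicase mle and the histone acetyltransferase mof with the noncoding RNAs roX1 and roX2. It enters the X at sites rich in GA repeats, which the zinc finger protein Clamp binds, and the roX genes are themselves such entry sites. Females do not form the complex because Sxl blocks production of the msl-2 protein.

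Tagged CTCF had reproducible peaks at the starts of 4 of the 8 genes, roX1, roX2, msl-2 and msl-3. The peaks are those of the authors' dm6 list after their irreproducible discovery rate (IDR) filter, 5443 peaks in all, and each is placed by its summit. The signal quoted for a peak is the score of the authors' peak caller, which has no stated scale and runs from 195.5 to 89235 in this list, with a median of 345.1. The summits of all 4 genes lay within 200 bp of a transcript start, where 14.6% of all genes had one. The count was the same at 1 kb, where 24.4% of all genes had a summit, and at 2 kb, where 31.0% had one. Of the X-linked members 2 of 3 had a start peak and of the autosomal members 2 of 5, at each of these distances. Among all X-linked genes the shares were 14.7%, 24.9% and 31.5% at 200 bp, 1 kb and 2 kb, and among all autosomal genes 14.6%, 24.3% and 30.9%. Summits inside the gene body were at 2 of the 8, X-linked roX2 and autosomal msl-3, against 11.6% of all genes, 14.6% of X-linked genes and 11.1% of autosomal genes. With 4 of 8 genes the 95% Wilson interval was 21.5 to 78.5% at each distance, as the same 4 genes were counted each time. It is not a test against the share of all genes. Intervals cover counting error over genes only, and genes are not replicates of an experiment.

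**Figure D1:**
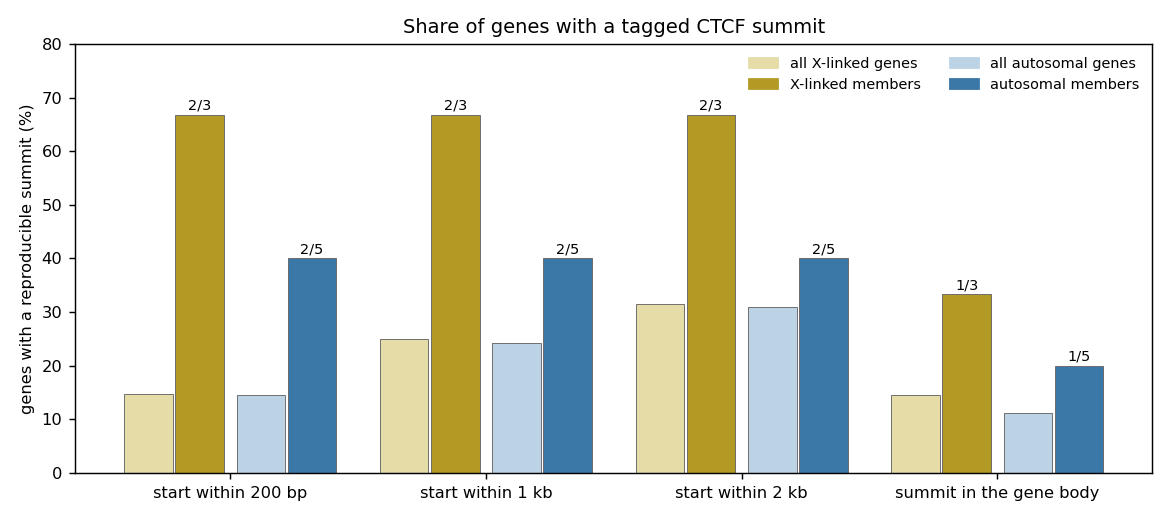
Bars give the percentage of genes with a reproducible summit near a transcript start (200 bp, 1 kb, 2 kb) or in the gene body. Pale bars are all X-linked or all autosomal genes and dark bars are the dosage compensation genes, with counts above them. The member counts of 2 of 3 on X and 2 of 5 on autosomes do not change from 200 bp to 2 kb.

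The sequences below are windows at peaks or motif copies in and around these genes. They are 5′ to 3′ on the strand of the named dosage compensation gene, from the RefSeq assembly of dm6. The windows at roX1 and at the roX2 start, and those at the distant strong sites of msl-2 and mof, reach 50 bp to either side of the summit. Capitals in them mark copies of these motifs on either strand: Motif 1 (GGTCACAC, bound by M1BP) at roX2, msl-2 and msl-3, DRE (TATCGATA, bound by Dref) at msl-3, the GA repeat GAGAGAGA in roX2, and the CTCF core at the distant sites. The core was searched as AGAGGGCGC, AGATGGCGC, AGGGGGCGC and AGGTGGCGC. In the roX1 interior the capitals mark GAGAG and 1 copy of the CTCF core with 1 mismatch, which overlaps GAGAG copies. In the mof site they mark copies of the core with 1 mismatch each.
roX1 start (chrX:3862692-3862792, minus strand): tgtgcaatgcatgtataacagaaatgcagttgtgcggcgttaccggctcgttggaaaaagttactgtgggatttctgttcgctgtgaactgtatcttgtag
roX1 interior (chrX:3861300-3861400, minus strand): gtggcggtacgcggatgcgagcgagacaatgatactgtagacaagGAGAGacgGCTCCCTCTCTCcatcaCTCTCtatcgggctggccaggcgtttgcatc
roX2 start (chrX:11579021-11579121, plus strand): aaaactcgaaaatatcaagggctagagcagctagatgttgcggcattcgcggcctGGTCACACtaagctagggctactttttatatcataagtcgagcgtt
roX2 GA repeats (chrX:11580203-11580284, plus strand): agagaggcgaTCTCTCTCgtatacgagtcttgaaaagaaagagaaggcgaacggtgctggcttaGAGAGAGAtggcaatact
between the starts of msl-2 and ND-PDSW (chr2L:3466113-3466156, minus strand): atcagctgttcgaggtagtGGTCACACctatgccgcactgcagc
upstream of msl-3 (chr3L:7125534-7125653, minus strand): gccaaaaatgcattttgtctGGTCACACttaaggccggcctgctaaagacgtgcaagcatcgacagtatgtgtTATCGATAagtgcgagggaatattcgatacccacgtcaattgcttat
strong site upstream of msl-2 (chr2L:3472389-3472489, minus strand): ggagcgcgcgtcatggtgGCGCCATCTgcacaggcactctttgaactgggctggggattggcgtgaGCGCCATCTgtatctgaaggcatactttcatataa
strong site upstream of mof (chrX:5883532-5883632, minus strand): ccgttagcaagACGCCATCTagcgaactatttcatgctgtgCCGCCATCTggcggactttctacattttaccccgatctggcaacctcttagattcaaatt

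**Figure D2:**
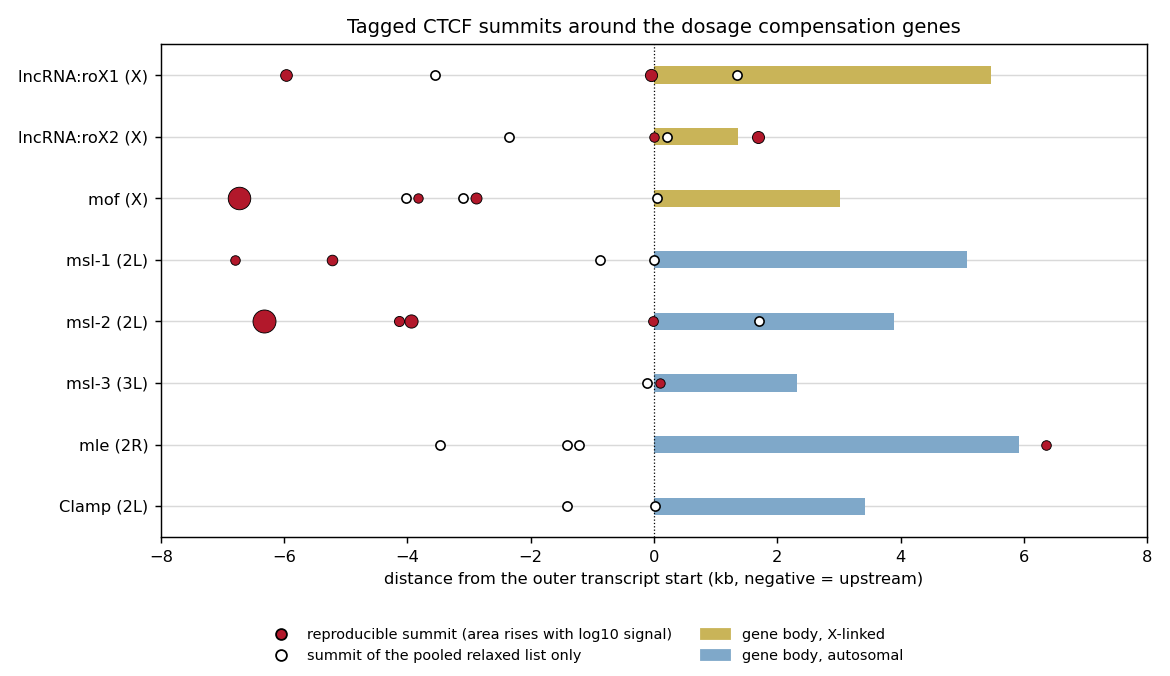
Each line is a dosage compensation gene with its chromosome arm, drawn from its outer transcript start at 0 in kb along its own direction, with the gene body as a bar. Filled circles are reproducible summits, with area rising with log10 signal, and open circles are summits listed only in the pooled relaxed list. Filled circles lie at the starts of roX1, roX2, msl-2 and msl-3, and the largest ones lie 6327 bp upstream of msl-2 and 6729 bp upstream of mof.

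The noncoding RNA roX1 (FBgn0019661, X from 3857230 to 3862697, minus strand, 3 distinct starts) had the strongest start peak of the 8. Its signal was 209.1 in replicate 2 and 209.3 in replicate 3, and 415.9 in the reproducible list, whose signals come from the pooled reads. The replicates were level, at ranks 2244 and 2339 of their lists of 30000 peaks. The summit at 3862742 lay 45 bp upstream of the start, and no other gene had a start within 1 kb of it. The nearest other start, that of the peptide transporter gene yin, was 4020 bp from a roX1 start. Of the 4317 genes with a summit within 1 kb, 62.3% had a weaker strongest summit. The peak is listed as 125 bp wide, while 58.6% of reproducible peaks are exactly 436 bp wide and 25.3% are narrower than that. The narrow width was not seen in the replicates' own lists, where the matched peak was 444 bp wide in replicate 2 and 416 bp in replicate 3.

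A second roX1 summit lay inside the gene and just missed the reproducible list. It is in a roX1 exon at 3861350, 711 bp downstream of the nearest annotated start and 1347 bp from the outer start. Its signal was 60.76 in replicate 2 and 118.4 in replicate 3, so it was strong in replicate 3 and weak in replicate 2. In the pooled relaxed list, which the authors made from both replicates before the IDR step, it had a signal of 193.5 and rank 5524, and the reproducible list is the strongest 5443 of that list. The window around it held 4 copies of GAGAG, a short GA core searched after the data were examined. Of all reproducible peaks 11.1% held at least 1 such copy in a window of that width, and of those on X 10.2%. None of the 5 reproducible peaks at these genes held GAGAG, and the relaxed summits 1415 bp upstream of mle and 15 bp inside Clamp held 1 copy each. The roX1 interior window held no exact CTCF core and 1 copy with 1 mismatch. With 1 mismatch allowed the core was in 24.8% of all reproducible peaks.

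At roX2 (FBgn0019660, X from 11579065 to 11580432, plus strand, 1 distinct start) there was a weak summit at the start and a stronger one past the end of the gene. The start summit at 11579071 was 6 bp inside the first exon, with a signal of 92.91 in replicate 2, 111.2 in replicate 3 and 208.4 in the reproducible list. Only 7.20% of the genes with a summit within 1 kb had a weaker one. The other summit at 11580754 lay 322 bp beyond the end of roX2 and 18 bp from the start of nod, which encodes a kinesin-like protein of meiotic chromosome segregation. Its signal was 188.6 in replicate 2, 190.4 in replicate 3 and 395.5 in the reproducible list. Replicate 2 also listed a summit at 11580523, 91 bp past the end of roX2, with a signal of 224.8, and replicate 3 did not list it. The GA repeats of roX2 are inside the gene, 1152 and 1206 bp from the start, and the nearest of them was 483.5 bp from the summit at nod. No reproducible summit lay within 200 bp of a GA repeat at these genes.

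The msl-2 gene (FBgn0005616, 2L from 3462218 to 3466112, minus strand) shares its bound start region with a divergent gene. Its start peak had a signal of 122.3 in replicate 2, 97.6 in replicate 3 and 221.4 in the reproducible list, and here replicate 2 was the higher. The summit at 3466129 lay 17 bp upstream of msl-2 and 28 bp from the start of ND-PDSW, which encodes a subunit of mitochondrial complex I and is read in the opposite direction from a start 45 bp away. Which of these genes a peak in so short an interval belongs to cannot be told apart. The peak was weak for a start peak, with 14.5% of called genes weaker. Motif 1 was present in 2 copies within 50 bp of the summit, 1 of them in the 44 bases between the starts.

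At msl-3 (FBgn0002775, 3L from 7123213 to 7125533, minus strand) the start peak was the weakest of the 4. Its signal was 94.01 in replicate 2, 112 in replicate 3 and 202.6 in the reproducible list, at rank 5219 of 5443, so it stands close to the end of that list. The summit at 7125436 was 97 bp downstream of the start, in the 5′ UTR, and 469 bp from the start of the divergent gene BBS1, which acts at the base of cilia. A weaker summit of the pooled relaxed list at 7125645, with a signal of 91.7, lay 112 bp upstream of msl-3. Its own window held the Motif 1 copy, while neither Motif 1 nor DRE lay within 50 bp of the reproducible summit. The matched summit of replicate 3 was 92 bp from the reproducible one, near the limit of 100 bp for a match.

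The remaining members had no reproducible summit within 2 kb of a start. For mof (FBgn0014340, X from 5873840 to 5876853, minus strand) the peak at the start fell short of the reproducible list. It was listed 42 bp downstream of the start, with a signal of 104 in replicate 2, 76 in replicate 3 and 175.5 in the pooled relaxed list, where it ranked 6218. In replicate 2 it was among the 5443 strongest peaks, at rank 5131, and in replicate 3 it was not, at rank 8195. Its nearest reproducible summit was 2896 bp upstream, 38 bp from the start of the ubiquitin protease gene Usp30.

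The start of mle (FBgn0002774, 2R from 5974857 to 5980778, minus strand) had no summit within 1 kb even in the pooled relaxed list, the only member of which this was true. Replicate 2 alone listed a weak summit 104 bp upstream of the start, with a signal of 33.36 at rank 25099. The nearest in the pooled list, 1212 bp upstream, had signals of 63.84 in replicate 2, 120.3 in replicate 3 and 185.3 pooled, at rank 5827. It lay 146 bp from the start of the tyrosine kinase gene Src42A. The reproducible summit nearest to mle was 439 bp past its end and 33 bp from the start of BubR1, a spindle checkpoint gene. It had a signal of 212.8 and a DRE copy within 50 bp. Its signal was 120.8 in replicate 3, and replicate 2 listed no summit within 100 bp of it.

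At msl-1 (FBgn0005617, 2L from 18683720 to 18688800, minus strand) the summit 1 bp from the start was among the weakest listed. Its signal was 30.89 in replicate 2, 32.43 in replicate 3 and 56.48 in the pooled relaxed list, at rank 28472 of 30000. A second relaxed summit 884 bp upstream, with a pooled signal of 69.08, lay 7 bp from the start of the neighbouring gene CG10336. The nearest reproducible summit was 5221 bp upstream.

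Clamp (FBgn0032979, 2L from 22165720 to 22169143, minus strand) stood farthest from any reproducible peak. The nearest summit was 149788 bp from its start, and none lay within 25 kb, as for 15.1% of all genes. The relaxed summit 15 bp inside the gene, 540 bp from the start of lncRNA:CR44809, had a signal of 45.59 in replicate 2, 39.37 in replicate 3 and 89.41 pooled, at rank 14981. In the relaxed list 7 of the 8 members had a summit within 1 kb, but so did 58.3% of all genes.

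**Figure D3:**
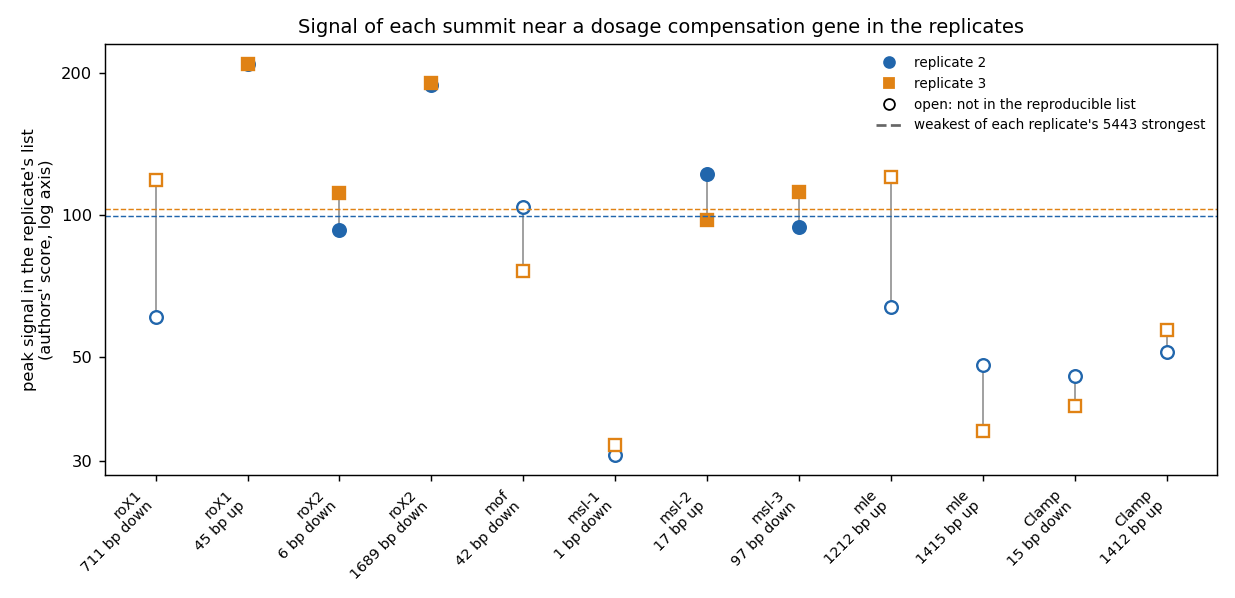
Points give the signal in replicate 2 (circles) and replicate 3 (squares), on a log axis, for each pooled summit within 2 kb of a start or in the body of a dosage compensation gene that both replicates listed within 100 bp. Open symbols are summits outside the reproducible list, and dashed lines mark the weakest of each replicate's 5443 strongest peaks, 99.44 in replicate 2 and 102.8 in replicate 3. The roX1 start and the summit beyond roX2 lie above both lines in both replicates, and the roX2, msl-2, msl-3 and mof starts lie above the line in 1 replicate only.

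The replicates placed the members differently around the threshold, and within 1 kb only roX1 was held by each of them. Within 2 kb roX2 was also held by each, in replicate 2 only through summits past its end. Among the 5443 strongest peaks of replicate 2, summits within 1 kb were at roX1, msl-2 and mof, 3 of 8, where 24.2% of all genes had one. Among those of replicate 3 they were at roX1, roX2 and msl-3, again 3 of 8, where 24.5% of all genes had one. The log2 ratio of replicate 3 to replicate 2 was 0.00 at the roX1 start, 0.26 at the roX2 start, 0.25 at msl-3 and -0.33 at msl-2. Over 5233 reproducible peaks matched in both replicates its median was 0.10 with an SD of 0.42, so roX1, roX2 and msl-3 lie within 1 SD of the median and msl-2 lies about 1 SD below it. With 2 replicates no test between them was possible, and how many reads lie behind each peak is unknown.

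**Figure D4:**
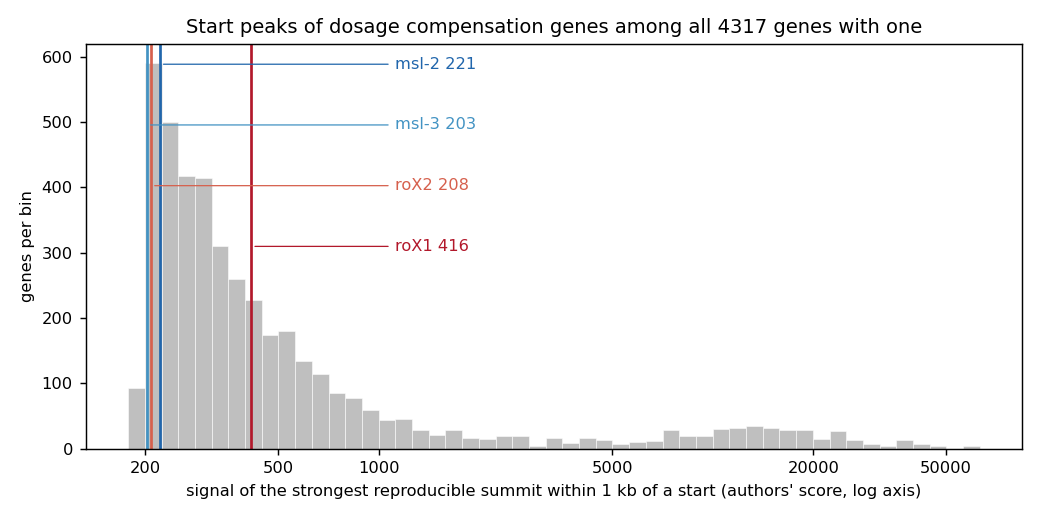
Grey bars count the 4317 genes by the signal of their strongest reproducible summit within 1 kb of a start, on a log axis, and coloured lines mark the dosage compensation genes. The lines of msl-3 (202.6), roX2 (208.4) and msl-2 (221.4) fall in the tallest bin, just above 200, and that of roX1 (415.9) is above the median of 331.2.

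The start peaks of these genes were close to the start and mostly weak. All 4 summits were within 100 bp of a start, as were 38.7% of the genes with a summit within 1 kb. The signals of msl-2, msl-3 and roX2 were below the lower quartile of those genes, 244.8, and that of roX1 was between the median of 331.2 and the upper quartile of 593.5. Other genes had signals like theirs. Of the 4128 or 4129 genes compared, between 45 and 58 lay within 0.1 of each on the log2 scale over the 2 replicates (Euclidean distance). The closest were Trissin for roX1, Tre1 for roX2, CG14757 for msl-2 and CG42699 for msl-3.

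None of the 5 reproducible peaks within 2 kb of a start or in the body of a member held the exact CTCF core within 50 bp of its summit, and none held it within 200 bp. By the rule of 3 divided by the number of peaks, a count of 0 among 5 allows a share of up to 60%. This is a rough bound for so few peaks. Of the 3415 reproducible peaks within 1 kb of any start 239 held the core, against 12.7% of all reproducible peaks. With 1 mismatch allowed, none held it within 50 bp, where 16.8% of those promoter peaks did. In wider windows the summit beyond roX2 had 1 such copy within 100 bp and 3 within 200 bp. The GA repeat was also in none of the 5, and in 0.791% of promoter peaks.

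Motif 1 was in the promoters of 4 of the 8 genes, msl-2, msl-3, roX2 and Clamp, counted from 250 bp before to 50 bp after the outer start. Of all 17683 promoters of that length 6.29% held it. DRE was in 1, that of msl-3, and in 7.71% of all promoters. The CTCF core and the GA repeat were in none of the 8, and in 0.927% and 2.83% of all promoters. Near summits, Motif 1 lay within 50 bp at the msl-2 and roX2 starts, where 3.78% of promoter peaks had it. A letter match is a description and no evidence of binding by the named factor.

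The strongest CTCF sites around these genes were not at their starts but some kilobases upstream of msl-2 and mof. This comparison, over 10 kb on either side of a start, was chosen after the data were examined. Upstream of msl-2, 6327 bp from its start, the peak from 3471701 to 3473152 had a signal of 17143 in replicate 2, 19160 in replicate 3 and 36276 in the reproducible list, where it ranked 30. It was intergenic, 164 bp from the start of Pgant4, a glycosyltransferase gene, and 2 exact CTCF cores lay within 50 bp of its summit. Starts of ND-PDSW, Pif1 and CG31776 lie closer to msl-2 than this peak, and summits with signals of 561.1 and 239.1 lay 54 bp from Pif1 and 75 bp from CG31776.

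Upstream of mof, 6729 bp from its start, the peak from 5883086 to 5883912 had a signal of 13155 in replicate 2, 14813 in replicate 3 and 27905 in the reproducible list, at rank 62. It was in an intron of lncRNA:CR45668, 2763 bp from the start of CG16721, and held 2 copies of the core with 1 mismatch and no exact copy. Of all genes, 99.3% had a weaker strongest summit, or none, within 10 kb than msl-2, and 98.6% than mof. For roX1, roX2, msl-1, msl-3 and mle the strongest signal within 10 kb was between 212.8 and 415.9, with at most 64.6% of all genes weaker or without one, and Clamp had none. Whether these distant sites act on msl-2 or mof was not tested.

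Other genes of the pathway were counted in lists of 4 to 19 genes, and differences between the lists were not tested. Of 19 genes of sex determination and X counting 4 had a summit within 1 kb, where 24.4% of all genes did. They were Sxl (917.4), the female switch gene that represses msl-2, gro (508.6), a corepressor, fl(2)d (382.1), which acts in Sxl splicing, and tra (216.1), a splicing regulator below Sxl. The X-linked counting genes sc, sisA, run and upd1 had none. Of the genes that control msl-2 RNA, 3 of 4 had a summit, Sxl, the Sxl partner Unr (291.2) and how (259.4), and Hrb27C had none.

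Of 6 genes of the NSL complex, which also contains mof, 3 had a summit within 1 kb, against 24.4% of all genes, MBD-R2 (360.5), Rcd5 (345.6) and nsl1 (332). Among chromatin partners 5 of the 9 matched had one: Top2 (591.8), which encodes topoisomerase II, the gene of heterochromatin protein HP1a (516.3), Set2 (322.5), a histone methyltransferase gene, Iswi (299.7), a chromatin remodeller, and Trl (253.6), the GAGA factor gene. JIL-1, the kinase enriched on the male X, had a summit in its body only. The summits at fl(2)d, nsl1, Rcd5, Set2, Top2, the HP1a gene, Iswi and Trl also lay within 1 kb of the start of another gene, such as CG13339 for fl(2)d and Acyp2 for nsl1. In all, 14 of the 37 distinct genes had a summit within 1 kb, beside the 24.4% of all genes. None of their strongest summits held the CTCF core within 50 bp, exactly or with 1 mismatch. The core was also uncommon in the 3415 reproducible peaks within 1 kb of any start. Of these, 239 held it exactly within 50 bp, and 16.8% did with 1 mismatch allowed. Whether the 14 genes differ from those peaks was not tested.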

How the data were processed

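Immunoprecipitated DNA from 2 biological replicates was sequenced, and the authors' peak lists on dm6 were the starting point. Per the file headers, the authors built a relaxed list from the alignments of each replicate, and of both pooled, with a control, and passed these lists to the IDR step. No source used here names the aligner or the peak caller or gives read depths. Per the labels, sonication gave sizes of 200 to 800, the antibody is CTCF in its own field and anti-GFP in the description. The deposited signal is a score of unstated scale, and the deposited -log10 q column was read only to describe the list. Each relaxed list stops at 30000 peaks and does not reflect depth. All 5443 reproducible peaks lay within the arms of the RefSeq dm6 assembly.

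Genes and transcript starts came from Ensembl release 115, and coordinates are 1-based. Peaks matched between lists where summits lay within 100 bp. Motifs were searched on both strands; DRE reads the same on both, and the GA repeat contains GAGAG. Members, gene lists and motifs were chosen with earlier results of these data known, and with 2 samples of 1 group nothing could be tested. By rule the text names all members, genes with a start within 1 kb of a summit near a member, pathway genes with a summit within 1 kb, and the gene closest in signal to each bound member. Other names (yin, genes beside more distant peaks, pathway genes without a start summit) were chosen after their values were seen. Of 10 chromatin partner names 9 matched 1 gene. Counts were tested on planted peaks and motifs, and all 6 checks passed. The 4 lists on dm3 were not used. Tools were matplotlib 3.10.9, scipy 1.17.1, pandas 2.3.3, numpy 2.4.6 and Python 3.11.15.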

Additional observations from a re-analysis of the deposited data

How the results depend on the processing

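Counts of members were held to other peak lists, positions and annotations, and a count was taken as unmoved within 1.5 times. The peak interval and merged peaks left each member count within that range, as did outer gene starts for the counts at starts. The RefSeq annotation, matched by gene identifier for all 17683 genes, gave the same counts and shares throughout, so it added no separate check. For all members at 1 kb, 500 bp gave 4 of 8 (20.1% of all genes) and 5 kb gave 5 of 8 (47.3%). With the stronger 2721 reproducible peaks the counts fell to 1 at 200 bp (5.98% of all genes), 1 at 1 kb (11.7%), 2 at 2 kb (15.9%) and 0 in the gene body (6.36%), with 1 X-linked and 0 autosomal members at 1 kb; pathway genes fell from 14 to 7. With all 30000 pooled peaks they rose to 7, 7, 8 and 7, against 37.3%, 58.3%, 67.4% and 36.2% of all genes, with 4 autosomal members at 1 kb and 33 pathway genes. Leaving out a replicate meant counting on the 5443 strongest peaks of the other, so at 1 kb this repeats the replicate counts above. Leaving out either replicate gave 3 members at 200 bp, against 14.7% of all genes without replicate 2 and 14.1% without replicate 3. At 1 kb it gave 3 (24.5% and 24.2%, in the same order) and at 2 kb 4 (31.2% and 30.8%). In the gene body it gave 3 without replicate 2 (12.1%) and 2 without replicate 3 (11.5%). It also gave 2 X-linked members, 1 autosomal member (msl-3 without replicate 2, msl-2 without replicate 3) and 14 to 20 pathway genes. The 4 at 2 kb were not the 4 of the reproducible list. Without replicate 2 they were roX1, roX2, msl-3 and mle, the last through a summit 1206 bp upstream at rank 4480. Without replicate 3 they were roX1, msl-2, mof and roX2, the last only through summits past its end. The nearest reproducible summit was matched for 8 of 8 members in replicate 3 and for 7 in replicate 2, the exception being mle. Peaks with the exact CTCF core or the GA repeat stayed at 0 within 50, 100 and 200 bp, and with 1 mismatch in the core at 50 bp; with 1 mismatch, the summit beyond roX2 had copies within 100 and 200 bp. The pathway settings, the GAGAG search and the 10 kb window were chosen after seeing the data. No paired analysis was possible because the series has 1 group. The start calls at roX2, msl-2 and msl-3 rest on peaks near the end of the reproducible list, and read depth is unknown.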
